A study of Caenorhabditis elegans with 2 samples.

Results

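The regions described here are the weak end of a ranked list of ISW-1 binding sites in L1 larvae of Caenorhabditis elegans: peaks that were called and ranked but did not enter the list of reproducible peaks. ISW-1 was mapped by ChIP-seq, in which DNA crosslinked to a protein is precipitated with it and sequenced. Of the 11648 peaks in the ranked list that holds every conservative thresholded interval, 9477 (81.4%) share no base with any of the 2143 conservative thresholded peaks, and these are the weaker peaks. The members were therefore selected on a measured value, the irreproducible discovery rate (IDR), which estimates from the ranks in a pair of replicates how likely a peak is not to recur. The larvae came from strain OP181, which is mutant at its own unc-119 gene (allele ed3) and carries the integrated transgene wgIs181 with unc-119(+) and a copy of isw-1 joined to TY1, EGFP and 3xFLAG tags. Whole animals at 6 h, starved after bleaching, were used, and the immunoprecipitation was with an antibody against GFP. There is 1 condition with 2 biological replicates, so no conditions were compared. The precipitated protein is the tagged copy, whole animals mix all tissues, and neither the extent of genomic DNA in the transgene nor the number of copies is given in the sources used here.

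ISW-1 is the ATPase of the ISWI family of chromatin remodellers, which slide and space nucleosomes. In the nematode it works with NURF-1 in a NURF-type complex, and it is known for roles in vulval development and in the mitochondrial stress response. In a ranked peak list the top is usually made of sites that every replicate shows, while the tail mixes weak or cell-type-restricted binding with fluctuations of the background, and a peak list alone cannot separate the parts of that mixture.

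The weaker peaks were low in signal, the enrichment value that the authors' caller gave each peak. Their signal ran from 36.8 to 1297 with a median of 46.0, against a median of 189 in the thresholded peaks. Only 8 weaker peaks exceeded the thresholded median, and 6 thresholded peaks (0.280%) lay under the weaker median. Most of the 8, with the highest, were among 17 members with an IDR of at most 0.01, which are set apart below. Without these 17 the highest signal was 210 and the next 175. In 4997 weaker peaks (52.7%) the global IDR stood at 0.787, the highest value in the list. Just inside the threshold of 0.01 the last 5 thresholded peaks had IDR values from 0.009757 to 0.009967 and signals from 77.0 to 118, and just outside it the first 5 weaker peaks had IDR values from 0.01002 to 0.01024 and signals from 66.8 to 128. These values chose the members and carry no test. Nearly all weaker peaks (9473) were 376 bp wide, against 55.2% of the thresholded peaks. The median distance from a weaker summit to the nearest thresholded summit was 15816 bp, and 292 (3.08%) lay within 1000 bp of one, so most lay apart from thresholded peaks.

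A few windows show what the members look like. Each is 201 bases centred on a summit, read from the plus strand of the RefSeq sequence of WBcel235 (ce11). Capitals mark the sequences counted further on that were more frequent at thresholded than at weaker summits. Each window is the highest by signal of its kind among those printed under 2 restrictions, on chromosome and on UTR bases, of which a window holds at most 30. Some named peaks of higher signal are therefore not shown. The first is the peak with the highest signal of all weaker peaks, at chrX:15811009-15811209, 6937 bp upstream of Y7A5A.7. It is a tandem array: shifted by 26 bases, 85.7% of its bases match.
Highest weaker peak: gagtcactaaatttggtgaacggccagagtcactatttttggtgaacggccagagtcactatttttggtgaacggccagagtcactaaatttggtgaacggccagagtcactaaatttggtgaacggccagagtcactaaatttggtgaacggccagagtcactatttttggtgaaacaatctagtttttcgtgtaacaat
The next windows are the first promoter peak (chrIII:10621357-10621557, 88 bp upstream of lron-10 and also in the window of hpr-9), the first coding exon peak (chrIII:6703606-6703806, in rbf-1), the first intron peak (chrII:3958831-3959031, in sea-2) and the first intergenic peak (chrX:16931673-16931873, inside the non-coding RNA gene C30E1.9), all with an IDR above 0.01.
Promoter, lron-10 and hpr-9: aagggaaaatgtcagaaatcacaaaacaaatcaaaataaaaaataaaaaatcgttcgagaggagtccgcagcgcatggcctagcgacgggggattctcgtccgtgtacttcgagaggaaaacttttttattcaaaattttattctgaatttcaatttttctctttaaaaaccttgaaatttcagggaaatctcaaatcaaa
Coding exon, rbf-1: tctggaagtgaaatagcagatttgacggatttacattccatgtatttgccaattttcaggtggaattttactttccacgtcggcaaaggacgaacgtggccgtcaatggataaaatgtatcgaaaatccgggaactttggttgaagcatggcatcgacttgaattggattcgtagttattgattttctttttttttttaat
Intron, sea-2: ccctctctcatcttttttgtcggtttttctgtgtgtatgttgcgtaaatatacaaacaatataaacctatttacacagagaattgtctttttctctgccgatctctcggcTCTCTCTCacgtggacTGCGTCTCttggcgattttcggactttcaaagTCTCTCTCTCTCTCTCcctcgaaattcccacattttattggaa
Intergenic, C30E1.9: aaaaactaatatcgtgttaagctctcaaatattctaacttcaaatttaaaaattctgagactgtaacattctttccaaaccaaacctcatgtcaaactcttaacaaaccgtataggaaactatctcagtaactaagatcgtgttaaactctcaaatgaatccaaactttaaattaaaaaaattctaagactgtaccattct
The last set holds the first such weaker peaks with the other counted sequences: chrIII:598271-598471 at Y55B1AR.2, chrII:7708656-7708856 upstream of B0495.9, and chrIII:9861597-9861797 in an intron of twk-48 that also holds the non-coding RNA gene K11H3.9.
Y55B1AR.2: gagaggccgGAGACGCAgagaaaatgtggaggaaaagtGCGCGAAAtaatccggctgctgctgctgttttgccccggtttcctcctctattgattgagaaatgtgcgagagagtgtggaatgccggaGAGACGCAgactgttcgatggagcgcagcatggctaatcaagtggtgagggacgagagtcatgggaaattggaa
B0495.9: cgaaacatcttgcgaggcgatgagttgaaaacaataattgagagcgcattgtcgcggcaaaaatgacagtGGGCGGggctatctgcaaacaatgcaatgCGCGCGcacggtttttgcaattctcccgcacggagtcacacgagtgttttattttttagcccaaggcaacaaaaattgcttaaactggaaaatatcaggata
twk-48 intron: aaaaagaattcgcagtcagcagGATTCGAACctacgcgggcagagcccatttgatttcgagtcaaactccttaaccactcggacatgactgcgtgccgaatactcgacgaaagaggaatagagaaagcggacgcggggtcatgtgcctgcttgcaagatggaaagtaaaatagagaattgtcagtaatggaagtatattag
The capitals in the sea-2 window are GA repeats on the minus strand and 1 copy of TGCGTCTC, and the Y55B1AR.2 window holds TGCGTCTC on the minus strand beside GCGCGAAA.

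Before the results, 17 members have to be set apart. They had a global IDR of at most 0.01 and yet were in no thresholded list: 0 of the 17 overlapped either replicate's thresholded list or the other series-level one. Their signal ran from 50.8 to 1297 with a median of 154, and 16 of them overlapped a ranked peak in both replicates. Of the 17, 15 were intergenic, 1 lay in an intron of usp-39, a splicing factor gene, and 1 lay 267 bp upstream of cts-1, which encodes citrate synthase. In 15 of the 17 (88.2%) over 50% of the 201-bp summit window was soft-masked, that is, written in lower case as repeat or low-complexity sequence in the reference. The same held for 2054 (21.7%) of the other weaker peaks and 16.9% of the thresholded peaks. The difference between the 17 and the other weaker peaks was 66.5 percentage points (Newcombe 95% interval 43.9 to 75.0). Some of the 17 overlap or lie close to one another and are not separate loci, so the interval covers only the number of peaks. The highest, the tandem array on chromosome X, had a signal of 398 in replicate 1's list and 997 in replicate 2's, and a second peak upstream of the same gene, at chrX:15808004-15808379 had a signal of 224. On chromosome V, 3 overlapping peaks between 5283982 and 5284938 had signals of 183, 58.3 and 190. The other 2 windows were less masked. That at cts-1 was 12.9% masked, with signals of 51.2 in replicate 1 and 38.1 in replicate 2. That at chrI:4535928-4536303, 1311 bp upstream of bet-1, which encodes a bromodomain protein, was 20.4% masked, with signals of 178 and 83.7. Per the notes deposited with the samples, the thresholded lists were derived with 1 further input file that the ranked lists were not, and the notes do not say what it holds. Whether that file set the 17 apart was not tested.

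Weaker summits were spread over the genome almost in proportion to the bases of each class, unlike thresholded summits. Summits were placed by Ensembl release 115 in the first class that applied: promoter (1000 bp upstream to 500 bp downstream of a protein-coding gene's outermost start), exon, intron, or intergenic (outside protein-coding genes). Of the weaker summits 28.9% (Wilson 95% interval 28.0 to 29.8) were in promoters, which make up 26.4% of bases, and of the thresholded summits 66.2% (64.1 to 68.1) were. Introns held 28.0% (27.1 to 28.9) of weaker summits with 27.9% of bases, and intergenic sequence held 25.0% (24.2 to 25.9) with 25.0% of bases. Exons held 18.1% (17.3 to 18.9) with 20.8% of bases, against 1.03% of thresholded summits. The promoter share of weaker summits was 37.3 points below that of thresholded summits (interval of the difference 35.1 to 39.5), the exon share 17.1 points above (16.2 to 17.9), the intron share 13.5 points above (11.7 to 15.2) and the intergenic share 6.73 points above (4.83 to 8.54). Without the 17 set apart, the promoter share was 28.9% and the intergenic share 24.9%. Peaks lie near each other and are not independent replicates, so intervals on shares cover only the number of peaks.

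The same differences stood in each replicate's own lists. In replicate 1, 27.2% of 16479 weaker peaks and 66.7% of 2090 thresholded peaks were in promoters. In replicate 2 the shares were 26.6% of 29366 and 68.3% of 1756. The exon share of the weaker peaks was 18.8% in replicate 1 and 22.2% in replicate 2, against 1.20% of the thresholded peaks in both.

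Within the weaker peaks, place changed step by step with IDR. Of the 326 members with an IDR from 0.01 to 0.05, 156 (47.9%, interval 42.5 to 53.3) were in promoters and 4 (1.23%) in coding exons. Of the 587 members from 0.05 to 0.2, 38.5% were in promoters and 7.50% in coding exons, and of the 1874 from 0.2 to 0.5 these were 29.9% and 14.2%. Of the 6673 members above 0.5, 26.9% (25.8 to 27.9) were in promoters and 16.9% in coding exons, near the 26.4% and 17.7% of bases. From the lowest to the highest of these ranges the promoter share differed by 21.0 points (15.5 to 26.5) and the exon share by 15.8 points the other way (12.8 to 17.7). For introns the interval of the difference held 0, from -9.26 to 0.178 points, as did that for intergenic sequence, from -4.83 to 4.66 points. Members from 0.01 to 0.05 still fell short of the thresholded peaks in promoters by 18.3 points (12.5 to 24.0). Ordered by signal instead, with the 17 left out, the 946 highest peaks had 46.1% in promoters and 2.22% in coding exons, and the 946 lowest 26.1% and 19.9%.

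**Figure D1:**
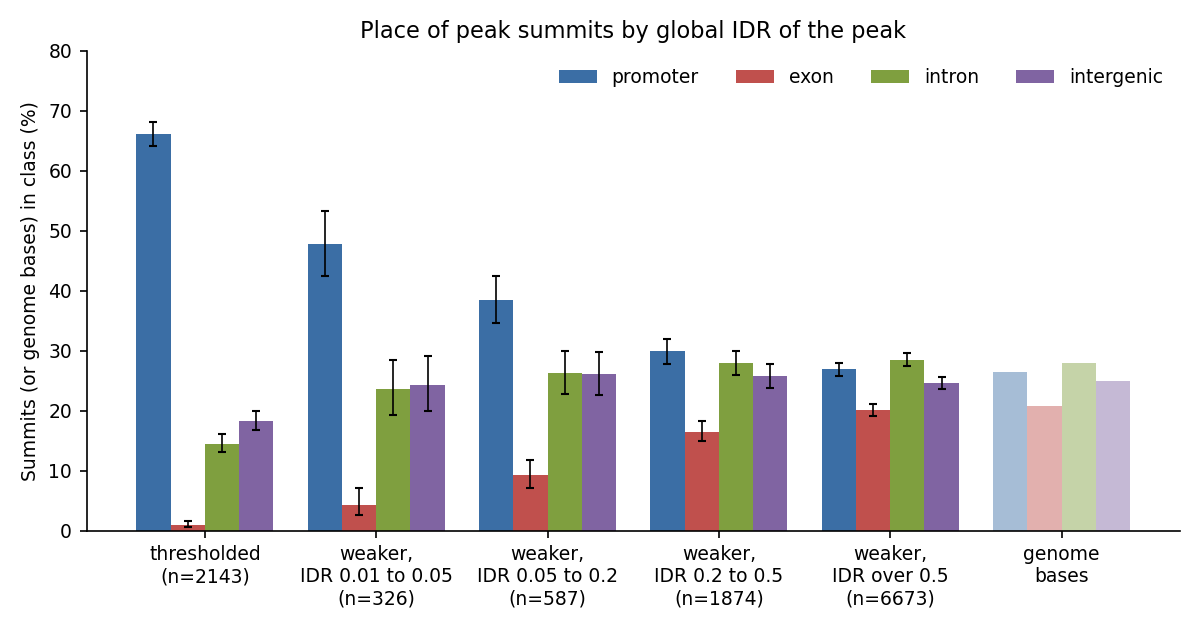
Bars give the share (%) of summits in promoters, exons, introns and intergenic sequence for thresholded peaks and for weaker peaks in 4 ranges of global IDR, with Wilson 95% intervals; pale bars give the share of genome bases. The promoter share goes from 66.2% in thresholded peaks to 47.9% and then 26.9% as IDR rises, next to 26.4% of bases, while exons go from 1.03% to 20.1%.

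Weaker summits were slightly more frequent just upstream of gene starts than just downstream, a far smaller asymmetry than in thresholded summits. Within 300 bp upstream of the nearest protein-coding start lay 952 thresholded summits (44.4%, interval 42.3 to 46.5) and 837 weaker summits (8.83%, 8.28 to 9.42), against 5.64% of bases. The difference was 35.6 points (33.4 to 37.8). Within 300 bp downstream lay 6.00% of weaker and 3.36% of thresholded summits, against 5.92% of bases. In members with an IDR from 0.01 to 0.05 the share was 27.6%, with 5.21% downstream and a median position 138.5 bp upstream. In those above 0.5 the share was 7.13%, with 6.10% downstream and a median position 321 bp downstream. The median position of the thresholded summits was 177 bp upstream. Of all weaker summits 45.9% were upstream of the nearest start, against 41.7% of bases and 78.4% of thresholded summits.

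**Figure D2:**
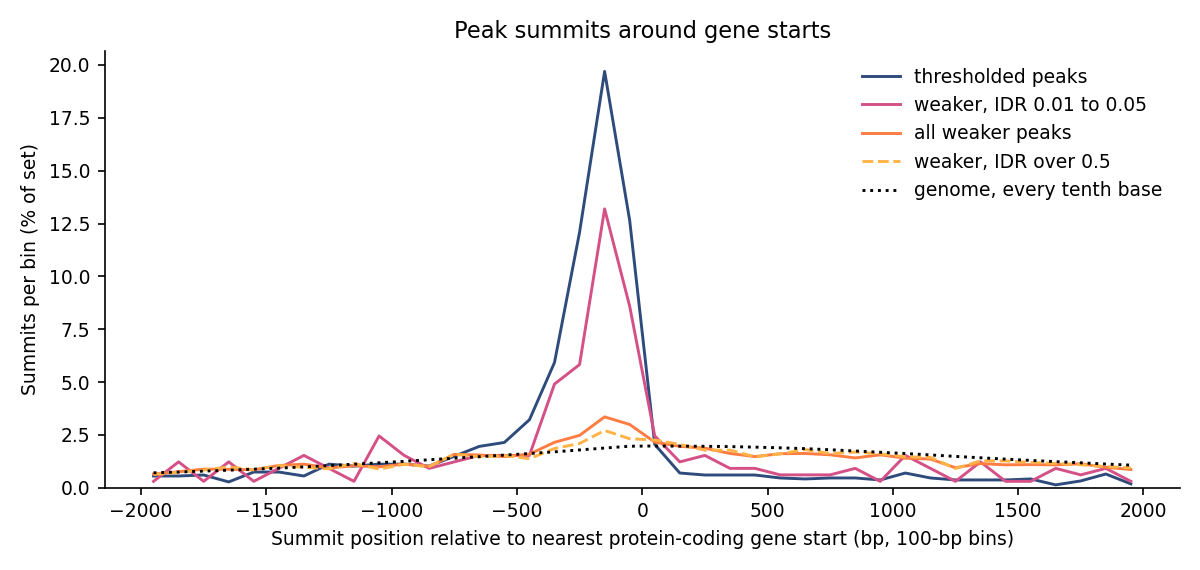
Lines give the percent of summits in 100-bp bins by position relative to the nearest protein-coding gene start, for thresholded peaks, all weaker peaks and weaker peaks in 2 ranges of IDR, with every 10th base of the genome as the dotted line. The weaker peaks with IDR from 0.01 to 0.05 share the upstream maximum of the thresholded peaks, with 27.6% against 44.4% within 300 bp upstream, and all weaker peaks show a small one (8.83%) over the genome (5.64%).

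The genes on either side repeated this. Of the 3907 weaker summits that lay outside protein-coding genes, 37.7% (36.2 to 39.3) lay between divergent genes, whose starts face each other, against 34.5% of such positions in the genome and 56.8% of thresholded summits. Between convergent genes, where only gene ends meet, lay 8.16% (7.35 to 9.07) of weaker summits, against 11.2% of positions and 2.74% of thresholded summits. The divergent share was 19.1 points below the thresholded one (16.3 to 21.9). Weaker summits inside genes were not confined to the bodies of genes with a thresholded promoter summit: 14.6% (12.9 to 16.5) of the 1443 in coding exons lay in such genes, which hold 12.2% of coding exon bases, and 11.9% (10.8 to 13.2) of the 2654 in introns, with 11.4% of intron bases.

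The weaker peaks overlapped both replicates' ranked lists about as often as not, and less the higher their IDR. A ranked peak overlapped 6921 weaker peaks (73.0%) in replicate 1 and 6935 (73.2%) in replicate 2, and 5091 (53.7%, interval 52.7 to 54.7) in both. Neither list overlapped 712 (7.51%). These lists hold 18612 and 31134 peaks and were made from the same alignments as the series-level list, so the overlap is a description and not an independent repeat. It went from 95.1% in both lists at an IDR from 0.01 to 0.05, through 87.1% and 71.5%, to 43.7% above 0.5. Of the thresholded peaks 99.4% were in both. The IDR is itself estimated from ranks in a pair of replicates, so this fall carries no test. The median signal was 49.6 in the members found in both, and 40.6 in those found in neither. Promoter summits were 30.7% of the former and 25.6% of the latter, a difference of 5.10 points (1.54 to 8.42), and exon summits were 16.3% and 24.7%, a difference of 8.46 points the other way (5.25 to 11.9).

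**Figure D3:**
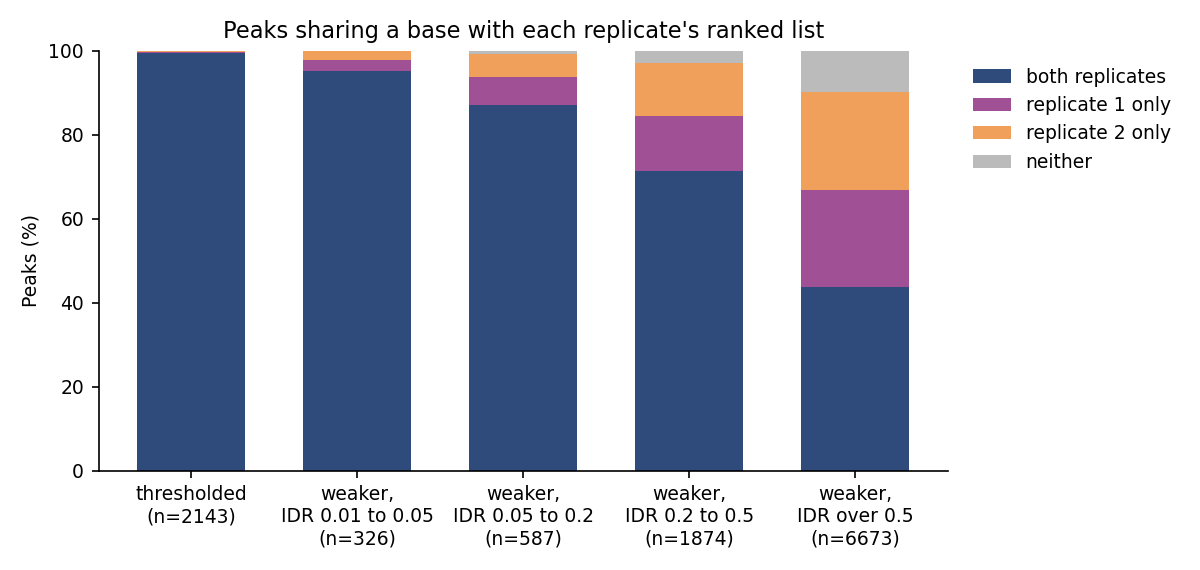
Stacked bars give the percent of peaks that share at least 1 base with a ranked peak of both replicates, of replicate 1 only, of replicate 2 only or of neither, for thresholded peaks and for weaker peaks in 4 ranges of IDR. The share in both goes from 99.4% in thresholded peaks to 43.7% in weaker peaks with an IDR over 0.5.

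Some weaker peaks overlapped a thresholded peak of 1 replicate and not of the other. A thresholded peak of replicate 1 overlapped 217 of the weaker peaks (2.29%), one of replicate 2 overlapped 94 (0.992%), and both overlapped 4. Of the 20 members with the highest signal and an IDR above 0.01, 15 overlapped a thresholded peak of replicate 1, 5 one of replicate 2 and 1 both, and 19 overlapped the other series-level thresholded list. Signals of different lists are on their own scales and are given side by side only. The peak at chrIII:5108795-5109170, 718 bp upstream of sax-2, a regulator of neurite growth, had a signal of 158 in the series list and 144 in replicate 1's, and no ranked peak in replicate 2. The peak at chrIV:12638169-12638544 had a signal of 158 in the series list and 99.8 in replicate 2's, and no ranked peak in replicate 1. Its IDR was 0.012, close to the threshold, and it overlapped neither replicate's thresholded list nor the other series-level one. The peak at chrV:15082312-15082687, between C01G10.9 and C01G10.10, had a signal of 173, with 130 in replicate 1 and 28.0 in replicate 2. The peak at chrII:11223956-11224331 lay in an intron of plpr-1, 38 bp upstream of the snoRNA gene T06D8.11, and was thresholded in replicate 2 only. Its signal was 82.3 in replicate 2's list and 54.6 in replicate 1's, above replicate 1's median of 31.3 at weaker peaks. The 307 members that overlapped a replicate's thresholded list were in promoters in 52.1% of cases (46.5 to 57.6) and in coding exons in 0.651%. Of the 20, 14 were promoter, 3 intron and 3 intergenic peaks, and 0 were exon peaks.

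The highest peaks outside promoters were of several kinds. In introns, the sea-2 peak had a signal of 141 and a ranked peak in replicate 1 only (120). The sea-2 gene encodes a zinc finger protein that takes part in sex determination. It was followed by peaks in klp-11, a kinesin gene (138), plpr-1 (137), xbx-6 (126) and at the suppressor tRNA gene sup-5 inside fli-1 (124). With the 17 left out, intergenic peaks were led by a pair inside C30E1.9 with signals of 175 and 169, the second of which overlapped a thresholded peak in both replicates. The 5 highest exon peaks had signals from 99.5 to 124 and lay in F21C10.3, Y71G12B.31, tos-1, nhr-119 and din-1, and 1 of the 5, that in Y71G12B.31, was in coding sequence.

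At the level of genes, a weaker summit was the only summit in the promoter window of 2887 protein-coding genes. A thresholded summit was in the window of 1997 of 19973 genes (10.0%), and of the 17976 without one, 2887 (16.1%) had a weaker summit. For weaker summits with an IDR from 0.01 to 0.05 these were 192 genes (1.07%). The median signal of the weaker summit was 48.9 over the 2887 genes. A summit in more than 1 window counts for each gene, which held for 14.7% of the promoter summits. Many of the genes named below share their summit with a neighbour, among them iff-1 with cdk-1, npp-2 with mei-1 and cox-6B with slc-30A9. Such a peak cannot be assigned to 1 gene of the pair. The counts below give, for each gene group, the members with a weaker summit out of the members without a thresholded one, to be read against the 16.1% of all genes. Of 49 protein-coding gene lists, 30 had a higher share than all genes and 19 a lower one.

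Many housekeeping groups had weaker summits at genes that thresholded peaks had not covered, to differing degrees. Of the translation factors, 23 of 39 had a thresholded summit and 12 of the other 16 (75.0%) a weaker one. The highest was eif-1.A, an initiation factor, with a peak of signal 130 at an IDR of 0.0198, 398 bp upstream of its start, and signals of 54.7 in replicate 1's list and 71.9 in replicate 2's. It was followed by eif-3.G (95.2), eif-4A3 (84.9) and iff-1 (72.8). Of the ribosomal proteins 70 of 80 had a thresholded summit, and 5 of the other 10 a weaker one, led by the acidic stalk protein genes rla-1 (56.6) and rla-2 (53.8), with rps-16 (50.4) and rpl-37 (49.7).

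The proton pump of acidic organelles, the vacuolar ATPase, had 7 of 20 genes with a thresholded summit and 8 of the other 13 (61.5%) with a weaker one, led by vha-10 (76.2) and vha-14 (67.2). Nuclear pore and transport genes had 8 of 16, among them the pore protein genes npp-16 (104), npp-1 (98.6), npp-2 (89.4, at an IDR of 0.607) and npp-5 (75.2). Splicing factors had 8 of 17, led by prp-21 (123, at an IDR of 0.533), and proteasome subunits 6 of 14, led by pas-7, a core particle subunit gene. The pas-7 peak, with a signal of 120, was 1 of the 4 weaker peaks thresholded in both replicates' own lists, and its summit also lay in the window of puf-12. For mitochondria, oxidative phosphorylation genes had 16 of 37 (43.2%), led by ndua-5 (121) and nduf-9 (110) of complex I, atp-4 (106) of the ATP synthase and cox-6B (98.9) of complex IV. Those at ndua-5 and atp-4 had no ranked peak in replicate 2, and IDR values of 0.111 and 0.4. Mitochondrial ribosomal protein genes had 16 of 44 (36.4%). Nearer to all genes were aminoacyl-tRNA synthetases with 7 of 25 (28.0%, Wilson 95% interval 14.3 to 47.6), heat shock proteins and chaperones with 10 of 36 and RNA polymerase II and Mediator genes also with 10 of 36 (27.8%, 15.8 to 44.0), and small GTPases of trafficking with 6 of 22, whose intervals held the share of all genes. Few of these summits were near the threshold. With an IDR of at most 0.05, nuclear pore and transport genes had 3 of 16, translation factors 2 of 16 and mitochondrial ribosomal proteins 2 of 44. Proteasome, vacuolar ATPase, synthetase, chaperone and RNA polymerase II groups had 1 gene each. Splicing, ribosomal protein, oxidative phosphorylation and small GTPase genes had 0, against 1.07% of all genes.

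Weaker summits lay at regulatory genes as well. Cell cycle and replication genes had 10 of 22 (45.5%), led by cdt-1, a replication licensing factor (109), the helicase gene mcm-5 (80.9), the kinase gene cdk-4 (77.7) and the kinetochore gene knl-1 (75.2, at an IDR of 0.787). In the TGF-beta pathways, which in the nematode control body size and dauer entry, 0 of 17 genes had a thresholded summit and 7 a weaker one (41.2%). They included daf-3, a SMAD of the dauer pathway, with a signal of 122 at an IDR of 0.0258, the ligand gene tig-2 (86.0), sma-9, a zinc finger cofactor (83.8), and the type I receptor gene daf-1 (50.5), whose peak overlapped no ranked peak of either replicate. The TGF-beta counts rested on the choice of list: with the other series-level lists 2 of the 17 had a thresholded summit and 3 of the other 15 a weaker one, against 15.4% of all genes. Wnt pathway genes had 8 of 23 (34.8%), with the receptor genes lin-18 (72.4) and cfz-2 (67.8), the TCF gene pop-1 (58.6) and the beta-catenin gene hmp-2 (53.1). Insulin and nutrient signalling genes had 6 of 18, led by daf-15, the Raptor gene (97.9). Ubiquitin conjugation genes had 16 of 41 (39.0%), and Notch pathway genes 1 of 12. With a window from 500 bp upstream to 250 bp downstream, these shares were 16.7% for Wnt, 15.0% for insulin and nutrient signalling and 22.0% for ubiquitin conjugation, against 9.98% of all genes. With an IDR of at most 0.05, cell cycle genes had 4 of 22, TGF-beta genes 2 of 17 and ubiquitin conjugation genes 1 of 41. Wnt, insulin and nutrient signalling and Notch genes had 0, against 1.07% of all genes.

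Many families and markers of single tissues were near or under the share of all genes, with glutathione S-transferases, detoxification enzymes, above it at 12 of 41 (29.3%, 17.6 to 44.5). That excess changed with the lists: with the other series-level lists it was 9 of 41 (22.0%), against 15.4% of all genes. In the replicates' own lists the glutathione S-transferase shares were 26.8% and 41.5%, against 24.0% and 38.4% of all genes. Chemoreceptors, the largest family of the nematode, had 102 of 1303 (7.83%), cuticle collagens 12 of 167 (7.19%), UDP-glucuronosyltransferases 3 of 66 and C-type lectins 23 of 238 (9.66%). Major sperm proteins had 1 of 31 (3.23%, 0.572 to 16.2) and muscle markers 3 of 36 (8.33%, 2.87 to 21.8), with intervals that held the share of all genes. With the other series-level lists muscle markers had 6 of 36 (16.7%), against 15.4% of all genes. The highest chemoreceptor gene, sre-1, shared its summit with B0495.9, from whose start the summit was 46 bp against 948 bp from that of sre-1. Near the share of all genes were nuclear hormone receptors with 35 of 261 (13.4%), neuropeptides with 19 of 101 (18.8%), potassium channels with 13 of 68 (19.1%), intestine markers with 7 of 38 (18.4%), hypodermis markers with 5 of 26 (19.2%), neuron markers with 9 of 42 (21.4%), germline genes with 5 of 35 (14.3%) and core histones with 9 of 62 (14.5%). The same held for cytochrome P450s with 11 of 74 (14.9%), ligand-gated ion channels with 15 of 100, F-box genes with 44 of 314, hedgehog-related genes with 14 of 85 and ceh homeobox genes with 11 of 60. Smaller shares were those of insulin-like peptides with 4 of 38, neuropeptide and amine receptors with 11 of 107, BATH and MATH genes with 7 of 69 and hlh genes with 2 of 23. Axon guidance genes had 4 of 25, pharynx markers 2 of 16, heterochronic genes 2 of 12 and synMuv and DRM genes 3 of 13. Single genes of these groups with peaks high for their group were the ligand-gated channel gene glr-8 (92.3), the potassium channel gene twk-5 (93.7) and nhr-255 (103). The glr-8 summit, 725 bp from its start, also lay in the window of cdf-1. In bulk chromatin from whole larvae, binding in few cells and weak binding in many cannot be told apart.

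The replicates' own weaker peaks gave a higher share of all these genes, since the lists are longer: 24.0% in replicate 1 and 38.4% in replicate 2. In replicate 1 translation factors stood at 11 of 16 genes and chemoreceptors at 15.3%, and in replicate 2 at 8 of 16 and 32.2%. The TGF-beta genes stood at 35.3% and 47.1%.

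**Figure D4:**
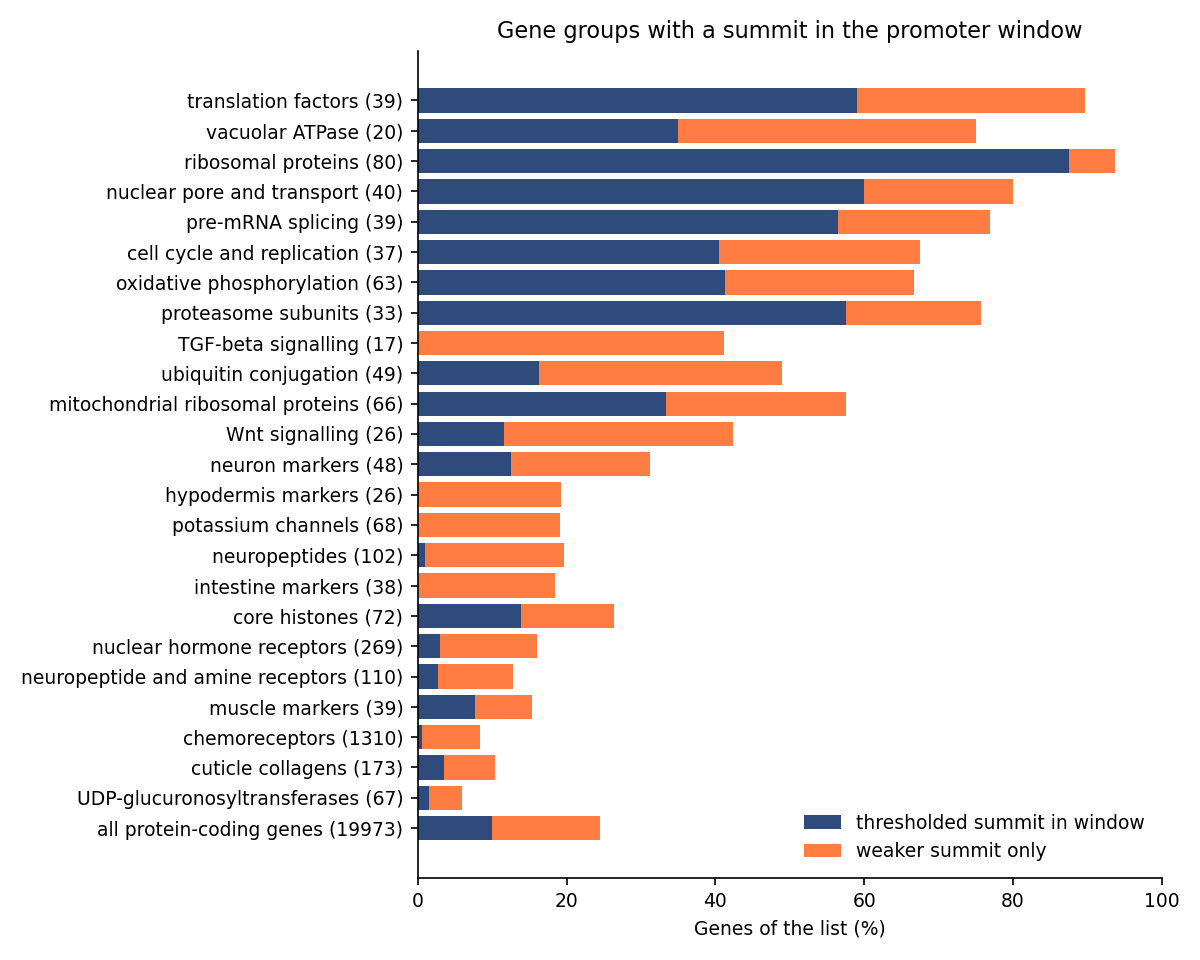
Bars give, for each gene group, the percent of its genes with a thresholded summit in the promoter window and, stacked on it, the percent with a weaker summit only; the number of genes is in parentheses. Of all protein-coding genes 24.5% have either. TGF-beta genes have weaker summits only (41.2%; 3 of 15, beside 2 thresholded, with the other series-level lists), and ribosomal protein genes mostly thresholded ones (87.5% of 93.8%).

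The genes of the remodeller itself were partly in this set. The NURF and ISWI list held 6 genes, of which 3 had a thresholded summit, and pyp-1, which encodes a pyrophosphatase subunit of NURF, had a weaker one 103 bp downstream of its start, with a signal of 67.3 and signals of 31.9 and 30.1 in the replicates. The gene nurf-1 had a thresholded summit (128) and a weaker one (56.8) in its window. Its body held 4 weaker summits, of which the one in the window was the highest. Of other chromatin regulators 9 of 24 (37.5%) had a weaker summit, led by set-25, a histone H3 lysine 9 methyltransferase gene (110), wdr-5.1 of the COMPASS complex (104), swsn-4, the SWI/SNF ATPase gene (74.2), and lsd-1, a histone demethylase gene (72.7). Of the 23 mitochondrial stress response genes 11 had a thresholded summit. Of the other 12, 2 had a weaker one (16.7%, interval 4.70 to 44.8), near the 16.1% of all genes. These 2 were atfs-1, the response's transcription factor (58.1, at an IDR of 0.624), and tomm-22 (49.9, at an IDR of 0.787).

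In the series list, no protein-coding gene other than one nested in isw-1 had as many weaker peaks around it as isw-1. Within 20 kb of the middle of the gene (chrIII:6703988-6710100) lay 19 weaker summits and 4 thresholded ones, against a median of 3 weaker summits over all 19973 protein-coding genes and a 99th percentile of 10. The nested gene, F37A4.6, had as many, and farther than 40 kb from isw-1 the highest count was 15, at Y38E10A.22 on chromosome II. Of the 19, 8 were in exons, all coding, 8 in introns and 3 in promoter windows, and 10 overlapped a ranked peak in both replicates. Their signals ran from 41.4 to 94.9 with a median of 52.0. The highest, in a coding exon of the neighbouring gene rbf-1, is the coding exon window shown above. In addition, 1 coding exon peak of isw-1 itself had a signal of 53.1, and 1 in a coding exon of the nested F37A4.6 had 55.1. In the replicates' own weaker lists the count around isw-1 was 17 against a median gene of 6 in replicate 1, where 37 genes (0.185%) had as many or more, and 24 against 11 in replicate 2, where 25 genes (0.125%) had. The transgene carries a further copy of isw-1, and the part of that copy in the count was not tested. Around unc-119, the other gene on the transgene, lay 6 weaker summits, a count reached or exceeded around 18.0% of genes, and 2 of the 6 were in its introns, with signals of 94.0 and 55.9. This locus was looked at because the transgene carries these genes, and its rank among genes was found after the counts were seen.

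**Figure D5:**
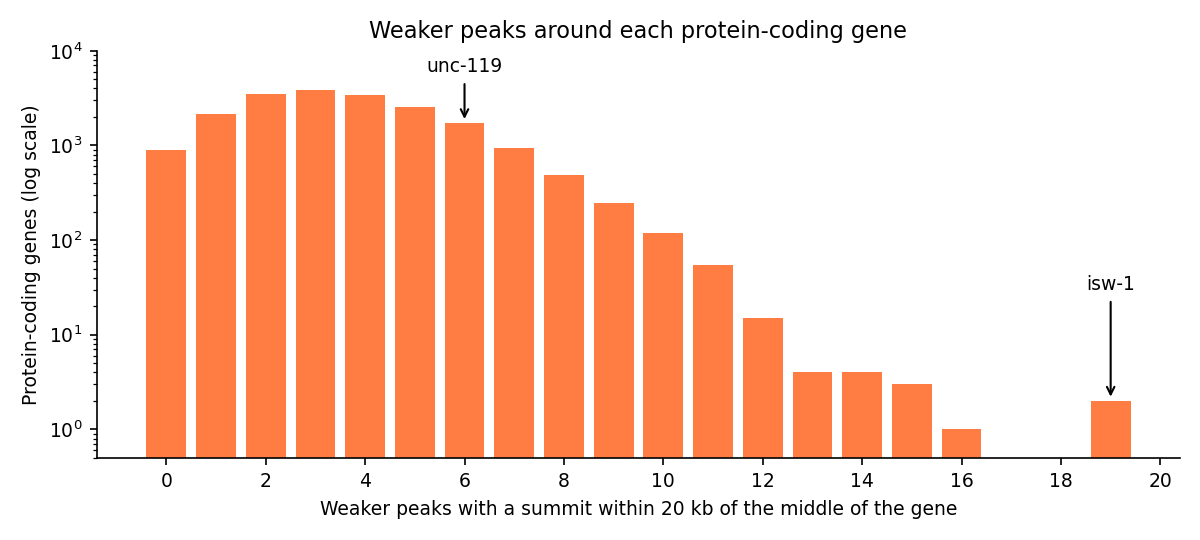
Bars give the number of protein-coding genes (log scale) with each number of weaker summits within 20 kb of the gene's middle. The bar at 19 holds isw-1 and the gene nested in it, beyond the 99th percentile of 10, and unc-119 is at 6.

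Among non-coding genes, 170 of 531 tRNA genes without a thresholded summit had a weaker one (32.0%), as had 77 of 256 snoRNA genes (30.1%), 31 of 111 snRNA genes (27.9%), 47 of 239 microRNA genes (19.7%), 1444 of 15204 piRNA genes (9.50%), 231 of 2100 pseudogenes (11.0%) and 0 of 20 rRNA genes. The other non-coding RNA genes had 1527 of 7228 (21.1%) and long intergenic RNA genes 34 of 182 (18.7%), against 16.1% of protein-coding genes. Non-coding genes lie in clusters and beside protein-coding genes, and 1 summit can count for many: 115 weaker summits lay within 200 bp of a tRNA gene. With summits in protein-coding promoter windows left out, 120 tRNA genes (22.6%), 54 snoRNA genes (21.1%) and 22 snRNA genes (19.8%) remained. No share over all genes was computed under this restriction, so whether these shares exceed a background was not tested. The highest at tRNA genes were at sup-5 (124, 10 bp from its start), F31B12.t1 (123), T14F9.t1 (118) and F57F5.t1 (108), all with a summit within 46 bp of the start. The trans-splice leader gene sls-2.7 had a peak with a signal of 117, 11 bp from its start.

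The GC content at weaker summits exceeded that of the flanks, by less than at thresholded summits. The 201-bp windows had a GC content of 39.2% ± 6.99 (SD over 9477 peaks), against 35.1% in flanks 400 to 600 bp away, and 68.5% of windows exceeded their own flanks. Thresholded windows had 44.0% ± 7.36 and flanks 36.5%, and the whole genome 35.4%. The gap between window and flanks was 7.38 points at an IDR from 0.01 to 0.05 and 3.55 points above 0.5. It also differed by place. In intergenic sequence the gap was 4.92 points in weaker and 13.5 in thresholded peaks, and in introns 2.81 and 11.7 points. In promoters the values were closer, 3.76 points in weaker and 4.80 in thresholded peaks. In exons they were 5.34 and 11.1 points, the latter over 22 peaks.

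Short sequences followed the same grading. The search was for exact matches on both strands in the 201-bp windows, and 11 sequences were counted, of which 9 differed between weaker and thresholded peaks by an interval that left out 0. A match is a description of the window and not a binding site. The octamer TGCGTCTC was in 331 weaker windows (3.49%, interval 3.14 to 3.88) and 351 thresholded ones (16.4%), against 1.19% of windows 500 bp to either side, 2.58% of the 201 bases ending at each of 19973 gene starts and 0.979% of consecutive windows of that length over the genome. Its share went from 11.7% at an IDR from 0.01 to 0.05 to 2.44% above 0.5. The repeat GAGAGAGA was in 3.55% of weaker and 12.6% of thresholded windows, against 1.32% of weaker flanks, 2.73% at gene starts and 1.32% over the genome. The windows with TGCGTCTC can overlap those with GAGAGAGA, as in the sea-2 window, where 1 octamer lies between GA repeats.

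The run CGCGCG was in 2.72% and 10.7%, with 1.13% in flanks, 2.25% at gene starts and 1.08% over the genome. GGGCGG was in 6.19% and 10.4%, with 3.25% in flanks, 5.97% at gene starts and 3.16% over the genome. GCGCGAAA, a form of the E2F site, was in 1.30% and 3.55%, with 0.828% in flanks, 0.901% at gene starts and 0.652% over the genome. GTTCGAATC, part of the internal promoter of tRNA genes, was in 28 weaker windows (0.295%) and 0.653% of thresholded ones, with 0.142% in flanks, 0.0801% at gene starts and 0.161% over the genome. Its difference of -0.358 points (-0.807 to -0.0633) changed with the lists used: with the other series-level lists it was -0.230 points (-0.645 to 0.0410), and the interval held 0 in 4 of 7 alternatives.

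AT-rich sequences went the other way. The GATA site TGATAA was in 13.6% of weaker and 6.72% of thresholded windows, against 18.2% in flanks, 22.8% at gene starts and 17.9% over the genome. TTTTTTTT was in 19.5% and 13.4%, against 24.7% in flanks, 26.3% at gene starts and 22.8% over the genome. TATAAA was in 14.9% and 13.0%, against 20.9% in flanks, 30.5% at gene starts and 21.2% over the genome. In every case the weaker windows lay between the thresholded windows and their own flanks. For the E box CACGTG (4.89% and 5.18%, against 3.40% in flanks, 4.23% at gene starts and 3.33% over the genome) the difference, weaker minus thresholded, was -0.294 points (-1.40 to 0.678). For the AP-1 site TGACTCA (1.76% and 1.87%, against 1.75% in flanks, 2.51% at gene starts and 1.83% over the genome) it was -0.104 points (-0.813 to 0.465).

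Across chromosomes the weaker peaks were more even than the thresholded ones. They numbered from 82.7 per Mb on chromosome V to 114 per Mb on chromosome III, while thresholded peaks went from 14.1 on V to 30.5 on III. Chromosome X held 17.0% of weaker and 13.8% of thresholded peaks, with 17.7% of bases, a difference of 3.25 points (1.56 to 4.85). On the autosomes 30.3% of weaker summits lay in the middle part of a chromosome cut into 3 of equal length, where 39.3% of thresholded summits lay, a difference of 9.01 points (6.58 to 11.5).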

How the data were processed

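Per the notes deposited with the samples, the authors made IDR ranked and thresholded peak lists on ce11 for each of 2 replicates and for the series. Which aligner and caller were used, and with which control, the sources used here do not give. The deposited signal value of a peak is the enrichment the authors' caller gave it, and the deposited −log10 column of the ranked lists holds the global IDR. A further 16 columns carry values of single replicates without naming the replicate, and these were left out. Peak lists carry no read counts, so depth is unknown.

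Overlap needed 1 bp. Shares have Wilson 95% intervals, and differences of shares Newcombe 95% intervals, called when they leave out 0. Gene names and models came from Ensembl release 115 and, where a name was missing, from RefSeq (2548 genes). The genome is WBcel235, which is ce11. In all, 58 gene lists and 11 sequences were used, and 2 of 463 listed symbols matched no gene. The members, lists and sequences were chosen with earlier results of these data known.

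Named were the 20 weaker peaks of highest signal, the 5 highest per class, up to 4 members per gene list with the highest weaker signal, and the remodeller's genes. In the text, single genes are picked from these. Printed windows were taken outside chromosome I, with at most 30 UTR bases, a restriction added to the naming rule. Code was tested on simulated summits. Scripts used Python with numpy, pandas and scipy.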

Additional observations from a re-analysis of the deposited data

How the results depend on the processing

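The directions of the 4 differences in place held under every alternative run: the other series-level lists, members at or above the median signal, an IDR of at most 0.05, members over 500 bp from a thresholded peak, narrower and wider promoter windows, and any transcript start. In the replicates' own lists, each with the other replicate left out, the promoter difference ran from -41.7 to -39.5 points, exon from 17.6 to 21.0, intron 14.8 in both and intergenic from 5.86 to 7.08. Sizes moved: with an IDR of at most 0.05 the promoter difference was -20.4 points and the exon difference 3.06.

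The share in both replicates' lists, 53.7%, was 49.9% with the other series-level list, 67.6% at or above the median signal, 95.04% with an IDR of at most 0.05, 46.6% where the summit had to lie in both peaks, 46.9% where 50% of the peak had to be covered, and 0.0422% with thresholded lists. Genes with a weaker summit only numbered 1709 at or above the median signal, 192 with an IDR of at most 0.05, 1831 with a window from 500 bp upstream to 250 bp downstream, and 4487 to 7244 in single replicates. The GC gap of 4.07 points became 5.08, 7.27 and, in single replicates, 2.47 to 2.87. Of the 9 sequences that differed, 2 still did with an IDR of at most 0.05, where the TATAAA difference turned to -2.77 points, with an interval that held 0; single replicates gave 8 to 10. The subsets hold fewer peaks by construction, which lowers their counts of genes; other causes were not tested. The number of gene lists above the share of all genes, 30 of 49 with intervals left aside, ran from 17 with an IDR of at most 0.05 to 31. Around isw-1 the weaker summits were 5.03 times the mean density within 20 kb and 2.78 times within 40 kb, a window chosen after seeing the data, as was leaving out the 17 peaks past the threshold, which changed no call.

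No paired analysis was possible because the series has 1 group. Depth and the caller's control are unknown, and 2 replicates limit every statement on recurrence.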
